A study of Mus musculus with 2 samples.

Results

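The 103 mRNAs described here are those that the Arraystar Mouse LncRNA Microarray v2.0 carries with a RefSeq accession at a single spot. They were chosen by the names on the array and not by their signals: probes that are not array controls, that carry a custom probe name and an accession starting with NM, and that occur at fewer than 10 spots. They are 103 of 118 RefSeq mRNA probes, the other 15 being printed as 20 spots each, and 103 of 61194 spots that are not array controls. By accession without version, 97 of the 103 were found among RefSeq gene names of the mouse assembly GRCm38.p6, as 95 symbols. Gm3286 and Ppp2r3d have 2 probes each, and 6 mRNAs are called by their accession.

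Plasma came from male C57BL/6 mice of 8 to 10 weeks, an inbred strain. The IRI group had 60 minutes of partial hepatic ischemia, made by clipping the blood supply of the left lateral and median lobes, and then 6 hours of reperfusion. The sham group had the laparotomy without the occlusion. Plasma of several mice was pooled, 5 to 8 per pool in the methods and 3 in the text deposited with the series, and each pool was hybridised to 1 array. There was thus no replicate and no test between sham and IRI, and every value below describes these 2 arrays. Each array had its own scan day, and the effect of the scan cannot be told apart from that of the group. In plasma, a change in which cells release RNA and a change in the RNA that each releases cannot be told apart either.

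The signal given here is the processed signal of a spot, its brightness after background subtraction by Agilent Feature Extraction, in arbitrary units and without normalization between arrays. It depends on the probe as well as on the RNA, so that signals are compared for the same mRNA between arrays. The sham array had 1 set of values. For IRI there were 2 sets, the scanner file and a column of the series matrix, and no member of the 103 had the same IRI signal in both (0 of 103, within a relative tolerance of 1e-05). Both are given for each mRNA, and which of them holds the IRI array was not settled. Where 3 signals follow each other, they are those of the sham array, the IRI scanner file and the series matrix, in this order, and ± is the error that Feature Extraction gives the spot. Where 2 log2 fold changes (IRI over sham) follow each other, the scanner files come first and the series matrix next.

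Plasma holds little RNA of its own, and the RNA found there is released from blood cells and from tissues, in vesicles, in complexes with protein, or from dying cells. Liver ischemia and reperfusion injures hepatocytes and brings in immune cells. Groups among the 103 mRNAs are copies of multicopy genes on the Y chromosome, whose known activity is in developing sperm, type 1 vomeronasal receptors, which sense pheromones in the nose, H2A histones, which package DNA, and chemokines of the Ccl21 family, which draw lymphocytes and dendritic cells to lymph nodes. Copies within such families can be alike in sequence, so that RNA of one copy may bind the probe of another. Transcript sequences were not compared, and the probe sequences are not used here. The others include housekeeping genes of cholesterol synthesis, vesicle fusion and transcription.

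Promoters of mRNAs on which the results turn are shown first, from 250 bases before to 50 bases after the RefSeq start, on the GRCm38.p6 assembly. H2ac18, with the highest IRI signal of the scanner file, and H2ac19 are neighbouring copies of an H2A histone gene. H2ac18 lies at chr3:96245247-96245546 on the plus strand and H2ac19 at chr3:96240325-96240624 on the minus strand. Aida, at chr1:183296810-183297109 on the plus strand, and Brox, at chr1:183296959-183297258 on the minus strand, start next to each other in opposite directions and differed in their signals. Hmgcs1, at chr13:119690101-119690400 on the plus strand, had the next highest IRI signal of the scanner file. Gm20738, at chrY:37957570-37957869 on the plus strand, and Ssty2, at chrY:67048023-67048322 on the minus strand, show how alike copies on the Y chromosome can be in this window. Capitals mark CCAAT, which reads ATTGG where it lies on the other strand, the letters TATAAA and the letters CACGTG, each searched on both strands.
H2ac18: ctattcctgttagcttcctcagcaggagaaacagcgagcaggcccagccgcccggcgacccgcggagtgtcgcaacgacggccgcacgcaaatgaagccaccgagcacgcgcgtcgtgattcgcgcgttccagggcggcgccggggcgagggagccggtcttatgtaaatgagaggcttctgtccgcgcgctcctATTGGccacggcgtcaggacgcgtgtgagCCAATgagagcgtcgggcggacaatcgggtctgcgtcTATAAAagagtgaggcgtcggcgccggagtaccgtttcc
H2ac19: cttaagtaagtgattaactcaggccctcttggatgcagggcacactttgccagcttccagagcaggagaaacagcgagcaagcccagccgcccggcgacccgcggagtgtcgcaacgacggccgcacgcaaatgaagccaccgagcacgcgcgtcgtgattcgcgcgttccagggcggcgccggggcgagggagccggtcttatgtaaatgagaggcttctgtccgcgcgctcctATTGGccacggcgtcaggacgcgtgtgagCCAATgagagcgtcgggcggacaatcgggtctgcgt
Aida: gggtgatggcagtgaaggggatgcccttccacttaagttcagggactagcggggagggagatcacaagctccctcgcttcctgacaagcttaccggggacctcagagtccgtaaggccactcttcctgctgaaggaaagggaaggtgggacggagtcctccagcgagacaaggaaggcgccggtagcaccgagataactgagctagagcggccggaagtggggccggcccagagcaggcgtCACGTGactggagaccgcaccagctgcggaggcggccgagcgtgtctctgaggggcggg
Brox: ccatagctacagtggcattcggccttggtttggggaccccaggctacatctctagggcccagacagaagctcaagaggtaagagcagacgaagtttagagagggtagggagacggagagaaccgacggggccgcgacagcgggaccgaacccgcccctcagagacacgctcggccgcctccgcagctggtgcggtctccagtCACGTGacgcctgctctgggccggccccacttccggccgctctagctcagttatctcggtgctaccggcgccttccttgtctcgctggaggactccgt
Hmgcs1: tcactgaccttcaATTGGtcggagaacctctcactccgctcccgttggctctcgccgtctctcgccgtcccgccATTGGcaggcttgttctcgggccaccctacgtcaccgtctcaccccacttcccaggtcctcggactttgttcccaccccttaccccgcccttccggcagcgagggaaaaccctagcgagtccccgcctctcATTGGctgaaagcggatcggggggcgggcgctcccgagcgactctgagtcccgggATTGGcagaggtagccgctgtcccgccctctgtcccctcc
Gm20738: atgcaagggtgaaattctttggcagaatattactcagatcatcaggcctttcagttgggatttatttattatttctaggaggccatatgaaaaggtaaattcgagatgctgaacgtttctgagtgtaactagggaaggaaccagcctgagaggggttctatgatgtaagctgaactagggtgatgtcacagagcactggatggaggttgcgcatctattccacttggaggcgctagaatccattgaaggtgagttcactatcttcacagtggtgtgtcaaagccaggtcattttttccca
Ssty2: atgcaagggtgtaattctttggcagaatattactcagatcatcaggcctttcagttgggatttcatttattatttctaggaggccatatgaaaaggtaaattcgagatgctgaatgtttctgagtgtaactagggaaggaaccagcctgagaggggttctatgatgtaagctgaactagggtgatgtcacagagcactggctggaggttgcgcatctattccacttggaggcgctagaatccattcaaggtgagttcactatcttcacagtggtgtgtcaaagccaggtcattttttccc
The H2ac18 and H2ac19 windows share an unbroken run of 219 bases and hold 2 CCAAT matches each, whereas 12.2% of 27025 promoters of this length hold 2 or more. The H2ac18 window also holds 1 TATAAA, after the RefSeq start, found in 14.2% of promoters. The H2ac19 window ends just before the matching place, so its lack there is no difference seen between the copies. The Aida and Brox windows overlap by 151 bases and hold the same CACGTG, found in 7.24% of promoters. The Hmgcs1 window holds 4 CCAAT matches, where 3.56% of promoters hold 3 or more. The Gm20738 and Ssty2 windows differ by 5 edits over 290 bases and hold none of these letters. These matches describe the letters of the windows only.

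On the sham array, 29 of the 103 mRNAs were well above background by the flag of Feature Extraction, against 41% of all spots that are not controls. For IRI the scanner file had 73, against 68.7%. Both arrays detected 26 mRNAs (all spots 35%), the sham array alone 3 (5.97%), the IRI scanner file alone 47 (33.7%), and neither 27 (25.3%). The series matrix has no flags for IRI, and 39 of the 103 IRI signals there reached 16.7, the lowest signal that was well above background on the sham array, against 36.7% of all spots. By this rule 28 mRNAs were detected on both arrays (29.2%). The share detected in the IRI scanner file was thus near that of the whole array, and the share detected on the sham array was lower. No member was saturated or carried an outlier flag.

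The median signal of the 103 was 6.16 on the sham array, 42.6 in the IRI scanner file and 7.22 in the series matrix, where all spots had medians of 13.7, 39.6 and 7.75. A signal of 1000 or more was reached by 9 mRNAs on the sham array (4.06% of all spots), by 19 in the IRI scanner file (13.3%) and by 11 in the series matrix (5.24%). All 9 bright mRNAs of the sham array were also bright in the series matrix, whereas 3 of them were bright in the IRI scanner file. Such overlaps were not counted over all spots. Over the 103 mRNAs, Spearman rho of the sham signals was 0.36 with the IRI scanner file and 0.81 with the series matrix. Between the IRI scanner file and the series matrix rho was 0.27. Over all spots that are not controls, rho in the same order was 0.40, 0.74 and 0.45. These are correlations across probes of single arrays, which share probe design and are not replicates.

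**Figure D1:**
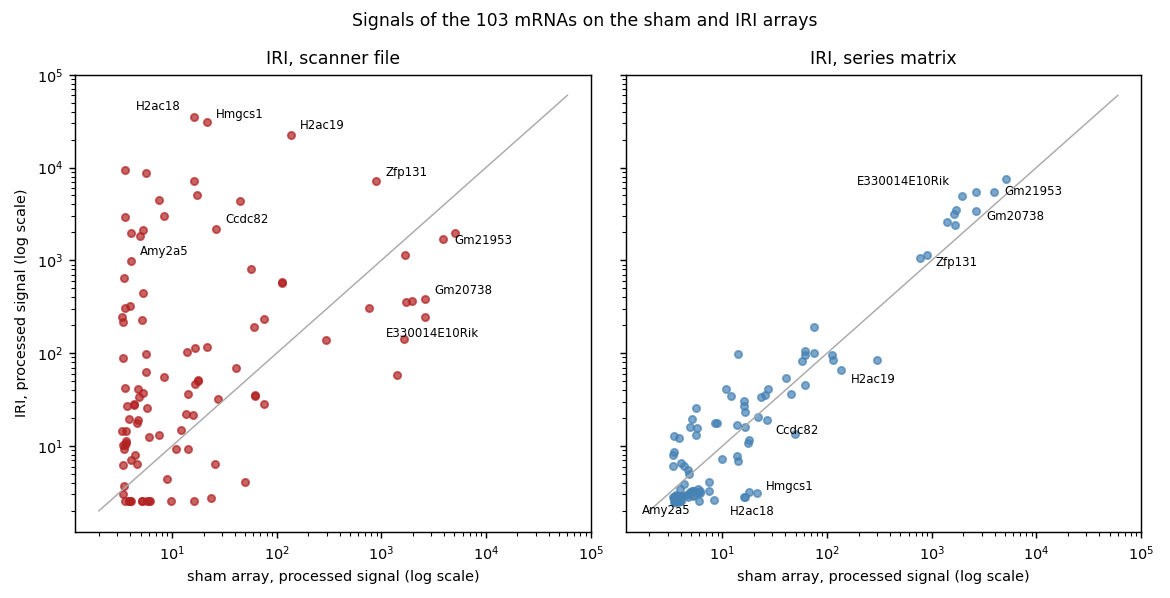
Each point is 1 of the 103 mRNAs, with the processed signal of the sham array on the x axis and that of IRI on the y axis, from the scanner file (left) and from the series matrix (right), in arbitrary units on log scales. The grey line marks equal signals. On the left H2ac18, Hmgcs1 and H2ac19 lie far above the line at IRI signals of 35102, 31136 and 22594, and on the right they lie at 2.83, 3.09 and 65.3.

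For fold changes, log2 signals were quantile normalized over all spots that are not controls. Changes of 1.5-fold or more and of 0.7-fold or less were counted. In the scanner files 4 of the 26 mRNAs detected on both arrays were past the upper threshold (19% of all detected spots) and 20 were past the lower (69.8%). Both shares were near those of all detected spots. The median log2 fold change was -2.91 over the 26 and -1.79 over all detected spots. After quantile normalization the middle of the detected spots, 35% of all spots, thus lay below 0. Without normalization the medians were -0.67 and 0.53, with 11 mRNAs past the upper (49.2%) and 14 past the lower threshold (31.5%). In the series matrix 8 of 28 were past the upper threshold (32.5%) and 3 past the lower (20%), with medians of 0.26 and 0.21. Of the 26 mRNAs with a fold change in both, 13 had the same sign. The like share over all spots was not counted.

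The counts moved with the scaling, for these mRNAs as for the array. In the scanner files 8 were past the upper threshold with the 75th percentile of the detected spots subtracted (25.7% of all detected spots), 8 with quantile normalization over the detected spots (34%) and 10 relative to the median of all detected spots (40.4%). Without asking for spots well above background, 20 of 57 were past it (29.3%). With the series matrix, 8 were past the upper and 2 past the lower threshold without normalization (39.4% and 19.2%), 20 and 2 with the 75th percentile (52.6% and 13.9%), and 6 were past the lower relative to the median (26.6%). A fold change below is the quantile normalized one unless stated.

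The error of these values is that of a spot. The error model of Feature Extraction gave the 26 log2 fold changes of the scanner files an error of 0.20 to 0.35, and 25 of 26 were larger than 2 such errors. The like share over all detected spots, whose median log2 fold change was itself -1.79, was not counted. The 25 are thus not read as particular to these mRNAs. Over the spots of mRNA probes printed 20 times, the SD of the log2 fold change had a median of 0.26 by scanner file (4 probes, highest 0.58) and of 0.25 by series matrix (6 probes, highest 0.72). Neither covers differences between pools, mice or hybridisations.

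**Figure D2:**
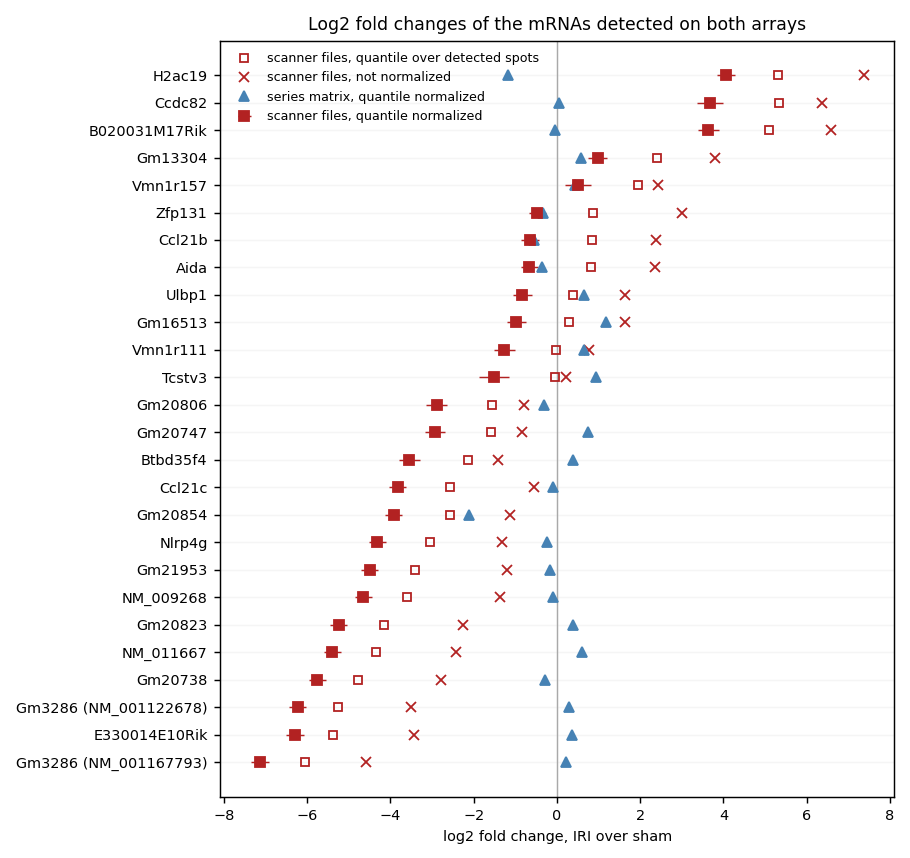
Log2 fold changes, IRI over sham, of the 26 mRNAs detected on both arrays of the scanner files. Filled squares are quantile normalized values with the error of Feature Extraction as bars, open squares are normalized over the detected spots only, crosses are not normalized, and triangles come from the series matrix. The squares run from 4.06 for H2ac19 to -7.14 for a Gm3286 probe, whereas the triangles lie between -2.11 and 1.19.

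The mRNAs that were brightest on the sham array had a lower signal in the IRI scanner file and, before normalization, a higher one in the series matrix. NM_009268 had a signal of 5101 ± 510.1 (error of the spot, Feature Extraction) on the sham array, 1977 ± 198 in the IRI scanner file and 7581 in the series matrix. Gm21953, a predicted gene on chromosome 4, had signals of 3916 ± 392, 1704 ± 170.4 and 5498. Their log2 fold changes were -4.66 and -4.50 by scanner file, against -0.09 and -0.17 by series matrix. The latter are smaller than the SD between spots.

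On chromosome 5 the predicted gene Gm3286 and the RIKEN clone E330014E10Rik lie near each other and behaved alike. E330014E10Rik had signals of 2635 ± 263 on sham, 243 ± 24.4 in the IRI scanner file and 5443 in the series matrix. The Gm3286 probe for NM_001122678 had 1631, 143 and 3175, and the probe for NM_001167793 had 1412, 58.4 and 2567. The log2 fold changes of these 3 probes were -6.29, -6.23 and -7.14 in the scanner files, the 3 lowest among the 26, and 0.37, 0.30 and 0.22 in the series matrix, where the sign was reversed. NM_011667 was like them, at 1965, 366 and 4915, with log2 fold changes of -5.40 and 0.61.

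Over all 9 mRNAs with a sham signal of 1000 or more, log2 fold changes ran from -7.14 to -3.83 by scanner file, and from -4.60 to -0.55 there without normalization. In the series matrix they ran from -0.28 to 0.61. Having been picked for a high sham signal, they are set beside all detected spots that reached 1000 on the sham array, of which 96% were lower in IRI by the scanner files, 84.7% were lower there without normalization and 57.3% were lower by the series matrix. For these members the counts were 9 of 9, 9 of 9 and 4 of 9, and nothing particular to them is read from these.

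**Figure D3:**
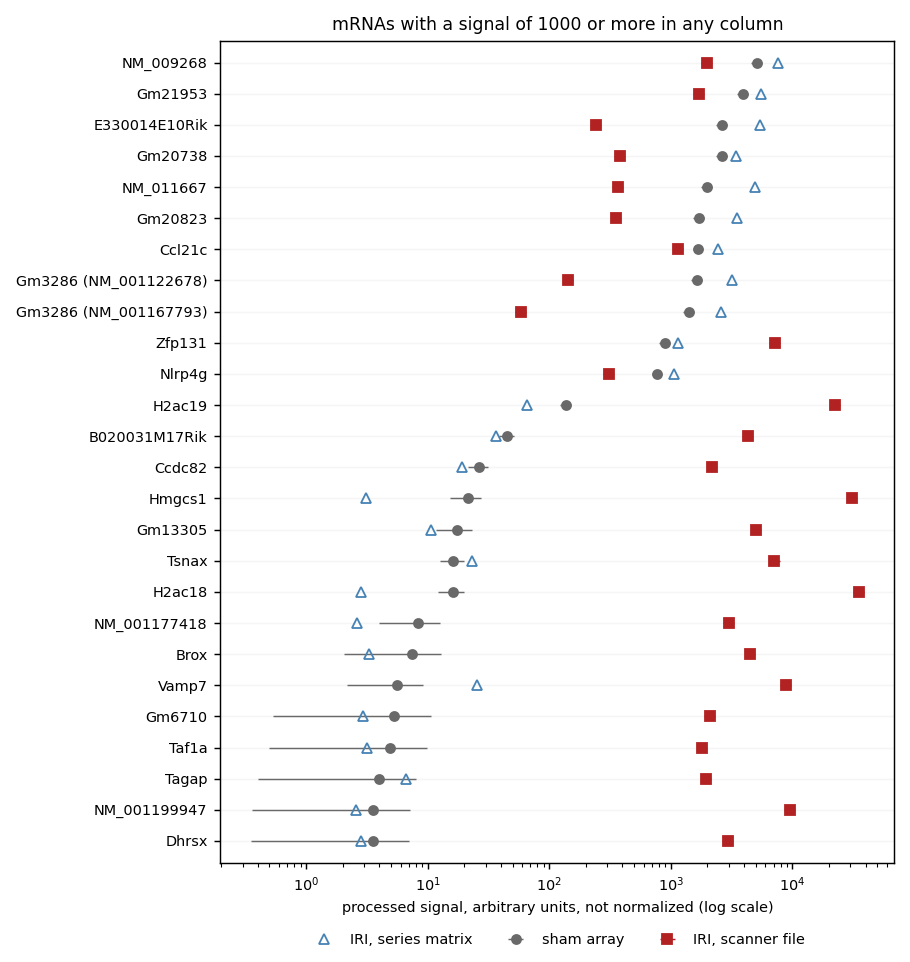
Processed signals (arbitrary units, not normalized, log axis) of the 26 mRNAs that reached 1000 in any of the 3 columns, ordered by the sham signal. Circles are the sham array and squares the IRI scanner file, with bars for the error of Feature Extraction (drawn short of 0), and triangles are the series matrix, which has no errors. In the upper 9 rows the squares lie left of the circles, and in the lower rows, from Hmgcs1 with a sham signal of 21.5 downward, the squares lie far to the right.

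In the other direction, 47 mRNAs were well above background by the IRI scanner file and not on the sham array. Their IRI signals ran from 13.1 to 35102 with a median of 88.2, and 12 of the 47 reached 1000. In the series matrix 41 of the 47 were below 16.7. The like shares over all spots were not counted, so neither the 12 nor the 41 is read as particular to the 47 mRNAs. A fold change of such an mRNA is a lower bound, the IRI signal against the higher of its own sham signal and the lowest sham signal that was well above background, on the normalized scale. For 26 of the 47 this bound was above 1 (54.7% of all spots seen in the IRI scanner file only), and for 17 it was 4-fold or more (27%). Without normalization 43 had a bound above 1 (90.7%). The sizes of the 26 bounds depended on the scaling: they were 3.17 to 6.06 times larger without normalization, 2.53 to 3.48 times larger when normalized over the detected spots, and 0.29 to 1.26 times as large with normexp background correction. With the 75th percentile of all spots Mia3 and H2al2b had no bound above 1. Bounds below are on the quantile normalized scale unless stated.

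Hmgcs1, the cytosolic HMG-CoA synthase of cholesterol synthesis, had a signal of 21.5 ± 6.10 on the sham array, 31136 ± 3114 in the IRI scanner file and 3.09 in the series matrix. It was at least 247-fold higher in IRI by the scanner files, and with the series matrix it was detected on neither array. Its promoter is among those shown above.

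Vamp7, a SNARE protein of vesicle fusion, had signals of 5.64 ± 3.49 on sham, 8803 ± 880.3 in the IRI scanner file and 25.3 in the series matrix. It was at least 90.6-fold higher by scanner file and at least 2.26-fold higher by the series matrix. Tsnax, the partner of the RNA-binding protein translin, had 16.2, 7119.9 and 23.0, at least 71.3-fold and at least 2.08-fold higher. Without normalization the series matrix bounds of Vamp7 and Tsnax were 1.52-fold and 1.38-fold. Vamp7 and Tsnax thus had bounds above 1 in both, by sizes that differed many fold. The series matrix bounds without normalization, log2 0.60 and 0.47, lay between the median and the highest SD between spots there (0.25 and 0.72). The Tsnax sham signal, 16.2 ± 3.70, was near the floor of 16.7, and the series matrix gives no spot errors.

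The other members with an IRI scanner signal of 1000 or more and a dim sham spot were not seen in the series matrix. NM_001199947 had 3.56 on sham, 9518 in the IRI scanner file and 2.57 in the series matrix. Dhrsx, a dehydrogenase of the short-chain family, had 3.52, 2944 and 2.85. Tagap, a GTPase-activating protein of T cells, had 4.01, 1954 and 6.62. Their bounds in the scanner files were 98.2-fold, 29.5-fold and 20.2-fold. In all, 10 mRNAs were at 1000 or more in the IRI scanner file, dim on the sham array and below 16.7 in the series matrix. The like share of all spots was not counted.

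Among mRNAs measured on both arrays of the scanner files, H2ac19, Ccdc82, B020031M17Rik and Gm13304 were past the upper threshold. H2ac19 had a signal of 137 ± 14.2 on sham, 22594 ± 2259 in the IRI scanner file and 65.3 in the series matrix, with log2 fold changes of 4.06 and -1.18, so that the sign turned. Ccdc82, a coiled-coil protein, had 26.4, 2188 and 19.3, with log2 fold changes of 3.67 and 0.05. B020031M17Rik had 44.8, 4313 and 36.5, with 3.64 and -0.04. In the series matrix the values of Ccdc82 and B020031M17Rik were within the SD between spots.

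All 4 histones of the set belong to the H2A family. On the sham array 1 was well above background (41% of all spots) and in the IRI scanner file 4 (68.7%). In the series matrix 2 reached 16.7 (36.7%). H2ac18 had a signal of 16.0 ± 3.80 on sham, 35102 ± 3510.2 in the IRI scanner file, the highest of the 103, and 2.83 in the series matrix. It was at least 388-fold higher by scanner file. H2ac23 had signals of 15.9, 21.8 and 26.9, and H2al2b, a variant of the male germ line on the Y chromosome, had 5.67, 62.5 and 15.7. The very high IRI signals were those of the neighbouring genes H2ac18 and H2ac19, whose windows share the run of 219 bases given above.

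Several members are neighbours on the genome, a grouping made after their values had been seen. In order of protein-coding genes on GRCm38.p6, Disp1, Brox, Aida, Mia3, Taf1a and Hhipl2 take 6 of 7 successive places on chromosome 1. On the sham array 1 of these 6, Aida, was well above background (41% of all spots), and by the IRI scanner file 6 were (68.7%). In the series matrix 2 reached 16.7 (36.7%). Aida, a gene of axin signalling, had 112 ± 11.7 on sham, 567 ± 56.8 in the IRI scanner file and 95.3 in the series matrix. Brox, a Bro1 domain protein, had 7.44 ± 5.40, 4512 ± 451 and 3.28. Although the windows around their starts overlap, Brox was at least 45.2-fold higher in IRI by the scanner files, whereas Aida had a log2 fold change of -0.67, which turned to 0.70 and 0.81 when the normalization used detected spots only and to 2.34 without normalization.

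Taf1a, a subunit of the RNA polymerase I factor SL1, had signals of 4.95, 1812 and 3.17, at least 18.9-fold higher by scanner file. Disp1, which releases Hedgehog proteins, had 3.35, 248 and 2.80, at least 3.63-fold higher. Mia3, which exports collagen from the endoplasmic reticulum, had 8.41, 56.0 and 17.9, at least 1.06-fold higher by scanner file and at least 1.66-fold higher by series matrix (1.07-fold without normalization). Hhipl2 had 3.42, 88.2 and 12.7. In the scanner file the 5 neighbours of Aida were all seen in IRI and not in sham (33.7% of all spots).

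On chromosome 13, Ccl28, Hmgcs1, Nim1k, Zfp131, AF067063, Tcstv1 and B020031M17Rik take 7 of 9 successive places. On the sham array 2 of them were well above background (41% of all spots) and by the IRI scanner file 6 (68.7%). In the series matrix 2 reached 16.7 (36.7%). Zfp131, a zinc finger transcription factor, had signals of 893 ± 89.4 on sham, 7136 ± 714 in the IRI scanner file and 1135 in the series matrix. Its log2 fold changes were -0.48 by scanner file and -0.35 by series matrix. The former turned to 0.62 with the 75th percentile and to 0.88 when normalized over detected spots. The latter turned to 0.35 without normalization and to 0.61 with the 75th percentile. In the scanner files without normalization Zfp131 was 7.99-fold higher in IRI. Tcstv1, a gene of the early embryo, had 16.4, 113 and 16.0. The kinase Nim1k had 3.75, 26.7 and 2.50.

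Jrkl and Ccdc82 are neighbours on chromosome 9. Jrkl had signals of 5.16 on sham, 228 in the IRI scanner file and 3.27 in the series matrix, at least 3.39-fold higher by scanner file. On the X chromosome Vamp7, Spry3 and Tmlhe take 3 of 3 successive places. Tmlhe, the first enzyme of carnitine synthesis, had 3.46, 649 and 2.50, at least 7.97-fold higher, and Spry3, an inhibitor of growth factor signalling, had 5.82, 25.9 and 3.44. All 3 were well above background by the IRI scanner file (68.7% of all spots) and none was on the sham array (41%).

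Chemokines gave 3 members. Ccl21c had signals of 1682 ± 168 on sham, 1152 ± 115 in the IRI scanner file and 2432 in the series matrix. Its log2 fold change was -3.83 in the scanner files, -0.55 there without normalization and -0.10 in the series matrix, where it turned to 0.53 without normalization. Ccl21b had 113 ± 12.5, 588 ± 58.9 and 84.1, with log2 fold changes of -0.65 and -0.55, and 2.37 in the scanner files without normalization. Both encode CCL21, the CCR7 ligand, and before normalization the IRI scanner signal was lower than sham for Ccl21c and higher than sham for Ccl21b. Ccl28, a mucosal chemokine, had 4.32, 27.4 and 3.93.

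Ccl21b lies on chromosome 4 with Gm13304, Gm13305, Gm21953 and Fam205a2, 5 of 8 successive places. Gm13304 had signals of 57.2 ± 6.66 on sham, 801 ± 80.1 in the IRI scanner file and 82.8 in the series matrix, with log2 fold changes of 0.98 and 0.58. It was among the few members higher in IRI in both sources. Gm13305 had 17.4, 5037 and 10.7, at least 47.7-fold higher by scanner file. All 5 were well above background by the IRI scanner file (68.7% of all spots) and 3 on the sham array (41%).

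The Y chromosome holds 23 of the 97 mRNAs with a gene symbol, most of them predicted genes of multicopy families that are active in spermatids. The 6 mRNAs called by their accession were not placed on a chromosome. On the sham array 7 of the 23 were well above background (41% of all spots) and by the IRI scanner file 10 (68.7%). In the series matrix 10 reached 16.7 (36.7%). The scanner files measured 5 on both arrays, and all 5 were past the lower threshold (69.8% of all detected spots) with a median log2 fold change of -3.92. The series matrix measured 7, of which 3 were past the upper threshold (32.5%) and 1 past the lower (20%), with a median of 0.38. Over the 5 that both sources measured, 3 were lower in IRI by the quantile normalized series matrix, and the median there was -0.28. On that scale the positive median over 7 came with Ssty2 and Gm20917, which the scanner files did not measure on both arrays. Gm20738, the middle value of the 5, turned to 0.39 without normalization, so this depended on the scaling.

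Gm20738 had a signal of 2628 ± 263 on sham, 381 ± 38.2 in the IRI scanner file and 3442 in the series matrix, with log2 fold changes of -5.76 and -0.28. The latter turned to 0.39 without normalization. Gm20823 had 1703 ± 170.4, 356 ± 35.7 and 3499, with -5.24 and 0.38. Gm20854 had 298 ± 30.0, 137 ± 13.9 and 83.4, with -3.92 and -2.11. Gm20854 was lower in IRI in both sources and under each normalization shown, and its series matrix value was the largest change of any measured member there.

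Gm20747 had 62.1 on sham, 34.9 in the IRI scanner file and 106 in the series matrix, with log2 fold changes of -2.93 and 0.75. Gm20806 had 62.1, 35.7 and 45.6, with -2.89 and -0.31. Ssty2, a spermatid gene whose promoter window differs little from that of Gm20738, had 25.6 ± 4.85, 6.33 ± 2.61 and 35.1. It was seen on the sham array and not in the IRI scanner file. Its bound was at least 5.90-fold lower on the quantile normalized scale, 2.02-fold without normalization and 1.84-fold normalized over the detected spots, and its log2 fold change was 0.86 in the series matrix. Gm20917, at 23.6, 2.72 and 33.9, was likewise at least 5.34-fold lower when quantile normalized, 1.86-fold without normalization and 1.61-fold over the detected spots, with a log2 fold change of 0.95 in the series matrix.

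Sly, a regulator of sex-linked genes in spermatids, went the other way, at 3.41 on sham, 219 in the IRI scanner file and 2.74 in the series matrix, at least 3.28-fold higher by scanner file. Ssty1 was dim in every column, at 3.53, 10.1 and 2.62.

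Type 1 vomeronasal receptors gave 12 members, with signals of 3.49 to 49.7 on the sham array, 2.53 to 116 in the IRI scanner file and 2.55 to 54.6 in the series matrix. On the sham array 3 were well above background (41% of all spots) and by the IRI scanner file 7 (68.7%). In the series matrix 4 reached 16.7 (36.7%). Vmn1r157 had 21.7 ± 4.27 on sham, 116 ± 11.9 in the IRI scanner file and 20.3 in the series matrix, with log2 fold changes of 0.50 and 0.44, neither past the threshold. The scanner value was past it without normalization, at 2.42, and when normalized over the detected spots, at 1.95. The series matrix value turned to -0.10 without normalization. Vmn1r111 had 40.6, 69.6 and 54.6, with -1.26 in the scanner files, 0.78 there without normalization and 0.64 in the series matrix. Vmn1r63 had 49.7 ± 6.13, 4.09 ± 2.57 and 13.6. It was lower in IRI by the scanner files, by at least 13.9-fold when quantile normalized, 3.92-fold without normalization and 4.86-fold normalized over the detected spots. By the series matrix it was at least 2.31-fold lower, the only member with a bound on the lower side in both.

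The X chromosome holds 10 of the 97 members with a gene symbol. On the sham array 1 was well above background (41% of all spots) and in the IRI scanner file 7 (68.7%). In the series matrix 2 were at 16.7 or more (36.7%). Btbd35f4, the one seen on sham, had 75.1 ± 8.30, 28.3 ± 3.80 and 101, with log2 fold changes of -3.55 and 0.39. None of the others on this chromosome was well above background on sham. Ott, a multicopy gene of the testis, had 4.04, 2.53 and 2.90.

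The list of PRAME family and oocyte genes gave 3 members. On the sham array 1 was well above background (41% of all spots) and by the IRI scanner file 1 (68.7%). In both it was Nlrp4g, of the NLR family, with 771 ± 77.1 on sham, 309.7 ± 31.1 in the IRI scanner file and 1062 in the series matrix. Its log2 fold changes were -4.32 and -0.25, and the latter turned to 0.46 without normalization. The PRAME genes Pramel37 and Pramel39 had sham signals of 9.80 and 3.64, IRI scanner signals of 2.53 and 10.7, and series matrix signals of 7.22 and 2.78. Neither was well above background on any array. Tcstv3, which is outside that list, had 27.5, 31.9 and 41.1, with log2 fold changes of -1.51 in the scanner files, 0.22 there without normalization and 0.94 in the series matrix.

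**Figure D4:**
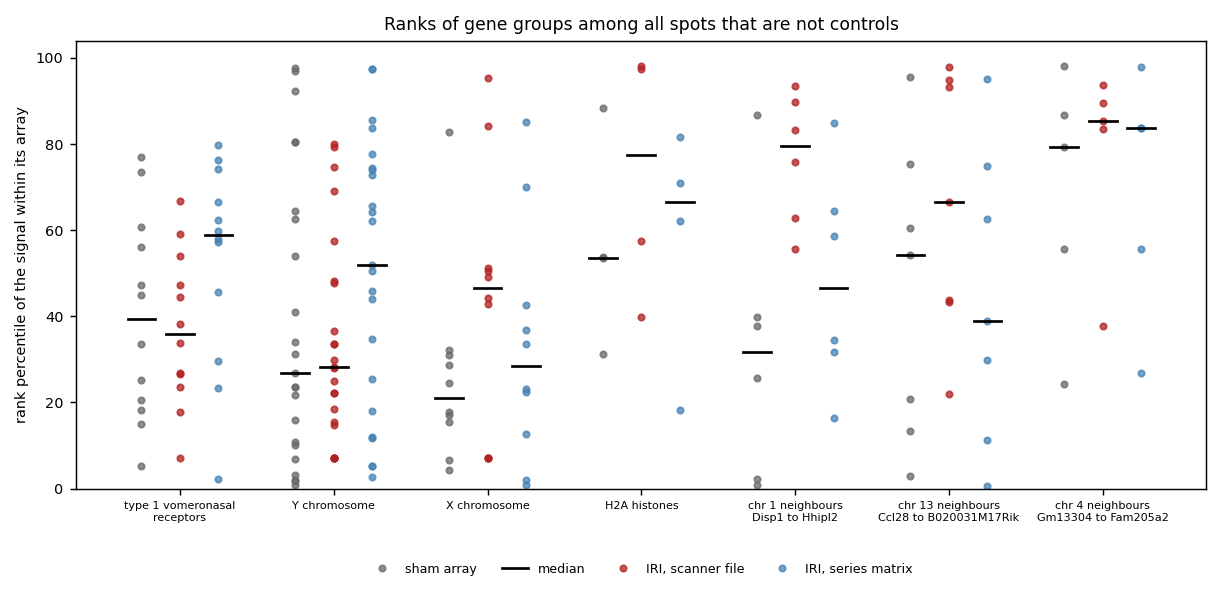
Rank percentile of each mRNA's signal among all 61194 spots that are not controls of the same column (y axis), for gene groups (x axis), with points for mRNAs and a black bar for the median of the group. The median percentile of the 6 chromosome 1 neighbours was 31.7 on sham, 79.6 in the IRI scanner file and 46.6 in the series matrix, and that of the 23 Y chromosome mRNAs was 26.9, 28.2 and 51.9.

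Members outside these groups followed no single direction. Ulbp1, a ligand of the NKG2D receptor of natural killer cells, had 61.1 ± 7.13 on sham, 190.4 ± 19.2 in the IRI scanner file and 95.1 in the series matrix, with log2 fold changes of -0.83 and 0.65, and 1.64 in the scanner files without normalization. Gm16513 had 75.1, 235 and 191, with -0.97 in the scanner files, 1.64 there without normalization and 1.19 in the series matrix. Mucl2, a mucin-like gene, had 14.2 ± 3.84, 9.24 ± 2.70 and 98.9. It was well above background in neither scanner file. In the series matrix it was at least 7.41-fold higher in IRI (5.93-fold without normalization), the only bound there of 4-fold or more.

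Of the lists of cell type markers, 1 gene is a member, the pancreatic amylase Amy2a5 of acinar cells, so that the plasma label could not be checked from these mRNAs. Amy2a5 had a signal of 4.04 ± 4.05 on the sham array, 992 ± 99.2 in the IRI scanner file and 2.88 in the series matrix. It was at least 11.3-fold higher in IRI by the scanner files and below 16.7 in both columns of the series matrix. The lists of hepatocyte and acute phase, erythroid, platelet, neutrophil, lymphocyte and endothelial genes had 0 members.

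Among the remaining members, both Ppp2r3d probes, for a regulatory subunit of protein phosphatase PP2A, gave like values. The probe for NM_001163415 had 17.8 ± 4.49 on sham, 51.2 ± 5.71 in the IRI scanner file and 3.20 in the series matrix, and that for NM_011154 had 16.4 ± 3.87, 46.1 ± 5.26 and 2.83. In each column the difference between these probes was within the sum of their spot errors, where there are errors. Gm6710 had 5.32, 2099 and 2.96, at least 21.6-fold higher by scanner file, and NM_001177418 had 8.35, 3008 and 2.64, at least 30.3-fold higher. Fam177a2 had 3.53, 307 and 2.51, at least 4.30-fold higher. These were not detected in the series matrix.

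The 27 mRNAs detected on neither array of the scanner files included the beta-defensin Defb33, at 3.51 ± 3.52 on sham, 3.68 ± 2.56 in the IRI scanner file and 2.72 in the series matrix, and the oocyte homeobox gene Obox2, at 3.57 ± 3.58, 2.53 ± 2.53 and 2.96. Their signals were about as large as their spot errors. Of such dim mRNAs, Gm20865 on the Y chromosome and Vmn1r135 reached 30.7 and 40.9 in the series matrix, from sham signals of 16.2 and 10.9. There they were at least 2.68-fold and at least 3.41-fold higher in IRI (1.84-fold and 2.45-fold without normalization). In the IRI scanner file they stood at 2.53 and 9.19.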

How the data were processed

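Gene expression in pooled plasma was measured on 2 Agilent 1-colour arrays, 1 sham and 1 IRI, after rRNA removal and random-primed labelling. The authors deposited, for each spot, the processed signal (an intensity that Agilent Feature Extraction 11.0.1.1 had corrected for background) with its error and flags, not normalized between arrays. Per the file headers, the sham array was corrected for a multiplicative trend over its surface and the IRI array was not. The authors also deposited a series matrix of linear intensities. The sham values in it matched the sham scanner file at 62513 spots, and the IRI values matched the scanner file at 1 spot. The matrix has 0 columns without a sample. The study methods name quantile normalization and the thresholds of 1.5 and 0.7.

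Groups follow the sample titles. Log2 signals were quantile normalized over non-control spots in Python 3.11.15 (scipy 1.17.1, numpy 2.4.6, pandas 2.3.3). The step was tested on simulated data and checked against limma 3.58.1 in R 4.3.3, and matplotlib 3.10.9 drew the figures. An mRNA was measured if both arrays flagged it as positive, significant and well above background, and neither as an outlier. In the series matrix the sham flags and a floor of 16.7 on the IRI signal were used. The lowest signals well above background were 16.7 (sham) and 12.7 (IRI scanner file). Where 1 array was dim, the fold is the brighter signal over the higher of that array's lowest signal and the dim spot's own, after normalization. Precision is limited by having 1 array per group, and no test was made.

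Members and gene lists were chosen with earlier results of these data known. Named by rule were the examples of the member rule, families with 2 or more members, the 5 largest rises, falls and bounds, and the 5 brightest of each column. Lists with 1 member were amylases, zinc finger proteins, defensins, Ccdc proteins and X-linked multicopy genes. The other 11 family lists and 6 marker lists had 0. Chromosome and neighbour groups, and other genes named, were chosen after their values were seen. The list of Y-linked multicopy genes has 7 members by name, but Gm21953 among them is on chromosome 4, so the chromosome was used instead. Alternatives covered the flags, the source, the normalization, normexp with an offset of 50 on the median signal, the thresholds, a filter on dim spots and averaging by symbol. Promoter windows come from RefSeq (GRCm38.p6). Probe sequences and liver arrays were not analysed here.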

Additional observations from a re-analysis of the deposited data

How the results depend on the processing

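No paired analysis was possible because each group has 1 array. With the IRI values of the series matrix in place of the scanner file, 8 mRNAs were past the upper and 3 past the lower threshold, and the median log2 fold change turned from -2.91 to 0.26. In the scanner files, 57 mRNAs were measured, 20 were past the upper threshold and the median was -0.65 when spots did not have to be well above background. Those past the upper threshold were 8 with the 75th percentile over detected probes (median -2.32), 8 with quantile normalization over detected probes (median -1.57), 11 without normalization (median -0.67) and 10 relative to the median of all detected probes, against 4 in the report. The median was -1.70 with normexp and -3.55 with the filter on dim spots. Chosen after seeing the data, the series matrix without normalization gave 8 and 2 past the thresholds and a median of 0.48, with the 75th percentile 20 and 2 and a median of 0.74, and relative to the median of all detected probes 6 past the lower. The cause of these shifts was not tested.

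Among all members with a value in the scanner files, log2 fold changes that changed sign with the series matrix were those of the Gm3286 probes (0.30 for NM_001122678 and 0.22 for NM_001167793), Ssty2 (0.86), B020031M17Rik (-0.038), Btbd35f4 (0.39), Gm20917 (0.95), Tcstv3 (0.94), Gm20747 (0.75), NM_011667 (0.61), E330014E10Rik (0.37), Gm20823 (0.38), Gm16513 (1.19), Ulbp1 (0.65), Vmn1r111 (0.64) and H2ac19 (-1.18). Without normalization the sign changed for Tcstv3 (0.22), Aida (2.34), Ccl21b (2.37), Gm16513 (1.64), Ulbp1 (1.64), Vmn1r111 (0.78) and Zfp131 (2.998). With the 75th percentile over detected probes it changed for Aida (0.70), Ccl21b (0.73) and Zfp131 (1.35), with quantile normalization over them for Aida (0.81), Ccl21b (0.84), Gm16513 (0.29), Ulbp1 (0.39) and Zfp131 (0.88), and with the 75th percentile over all non-control spots for Zfp131 (0.62). Normexp changed no sign among them. Spots not well above background give only bounds.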
